A study of Mus musculus with 36 samples.

Results

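Stefin A genes were followed in the tibia of a mouse model of Hutchinson-Gilford progeria. They were taken as every row of the gene table whose symbol starts with Stfa, which gave 4 genes, Stfa2l1, Stfa1, Stfa2 and Stfa3, of 56246 genes in 36 libraries. They were selected on a measured value, since Stfa2l1 was lower in mice treated with an adenine base editor than in saline-treated mice. That contrast is therefore described without a test, and the other members and the contrasts with wild-type mice carry the comparisons. These are not independent of the choice, since the same treated libraries enter them and the members vary together. RNA came from tibiae of 6-month-old mice from which epiphyses and marrow had been removed, and each group held 6 males and 6 females. The wild-type group (WT, n = 12) received no treatment. The saline group and the ABE group (n = 12 each) carried the genotype LMNA G608G/G608G (LMNA G/G). Both groups thus held 2 copies of a bacterial artificial chromosome transgene of human LMNA with the progeria allele, beside the intact mouse Lmna gene. Both had a retro-orbital injection 14 days after birth (P14); the former received saline and the latter AAV9 vectors that carry the editor as split-intein parts. Editing leaves a mosaic of corrected and uncorrected cells, and each library is bulk bone. The study describes the mice as littermates, the labels tie no mouse to a litter, and the wild-type mice bear their own run of animal numbers, so any difference in their handling was not tested.

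Stefins are small intracellular inhibitors that block cysteine proteases of the papain family, among them the lysosomal cathepsins B, H, L and S, by wedging into the active site. Humans carry a single stefin A gene, whereas in the mouse it has been duplicated into a cluster of near-copies. In mouse bone marrow the stefin A genes are known as transcripts of the neutrophil lineage, and human stefin A is abundant in keratinocytes. S100a8, a subunit of calprotectin, and Ngp, a secondary granule protein, are abundant neutrophil transcripts and served here as references within each library.

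The 4 genes lie on chromosome 16 (GRCm38) within 298.582 kb. Stfa2l1 (ENSMUSG00000059657.5) spans 36156811 to 36161953 and Stfa1 (ENSMUSG00000071562.6) spans 36276951 to 36285373, both on the plus strand. Stfa2 (ENSMUSG00000022902.8) spans 36403992 to 36408457 and Stfa3 (ENSMUSG00000054905.2) spans 36450537 to 36455392, both on the minus strand. Each has 3 exons in GENCODE vM21. Between and beside them stand 6 relatives with other symbols from a fixed list, Csta1, Csta2, Csta3, Cstdc4, Cstdc5 and Cstdc6. With them the family genes followed here came to 10 over 335.447 kb, which need not be the whole family. The bases before the start of each member are shown because the 4 genes varied together across libraries. They are from RefSeq (GRCm38.p6), read 5′ to 3′ on the gene's strand, and all 4 members matched an entry of 250 upstream bases. For Stfa1 and Stfa2 only the bases before the first annotated base of the GENCODE gene are given, which are 53 and 156 of the 250. Capitals mark the 2 longest stretches that all 4 windows share, of 15 and 13 bases. The second one in Stfa1 lies beyond the bases given.
Stfa2l1, chr16:36156561-36156810, plus strand: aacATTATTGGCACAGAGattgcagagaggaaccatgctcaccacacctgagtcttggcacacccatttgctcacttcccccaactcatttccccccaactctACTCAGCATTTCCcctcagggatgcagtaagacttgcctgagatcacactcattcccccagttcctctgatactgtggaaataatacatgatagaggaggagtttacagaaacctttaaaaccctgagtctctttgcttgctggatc
Stfa1, chr16:36276898-36276950, plus strand: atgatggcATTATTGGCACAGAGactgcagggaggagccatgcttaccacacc
Stfa2, chr16:36408458-36408613, minus strand: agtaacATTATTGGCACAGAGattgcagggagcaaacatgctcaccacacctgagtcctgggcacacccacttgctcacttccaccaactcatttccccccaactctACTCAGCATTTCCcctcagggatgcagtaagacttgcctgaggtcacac
Stfa3, chr16:36455393-36455642, minus strand: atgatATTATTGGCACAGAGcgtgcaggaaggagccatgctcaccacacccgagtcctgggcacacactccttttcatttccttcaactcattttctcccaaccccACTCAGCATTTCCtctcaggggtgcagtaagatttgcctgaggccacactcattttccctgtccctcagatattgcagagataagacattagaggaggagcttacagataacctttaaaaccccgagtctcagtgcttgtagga

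Over the 250 bases the windows of the members were 80.2% to 89.4% identical, and Stfa2 and Stfa2l1 were the most alike pair. The stretch ATTATTGGCACAGAG was present, on either strand, in 5 of 32817 promoter windows (0.0152%), those of the 4 members and of Cstdc5. The stretch ACTCAGCATTTCC was present in 9 windows (0.0274%), all on chromosome 16. They were those of the 4 members, Csta1, Csta3, Cstdc5, Cstdc3 and Gm7260, and Cstdc3 and Gm7260 were not among the genes followed here. Of the motifs searched on both strands, GAGGAA, the core of PU.1 sites, matched in all 4 windows and in 23.3% of all windows. The GATA factor site AGATAA matched in Stfa1 and Stfa3 and in 9.99% of all windows. TTGCNNAA, a C/EBP site, matched only in Stfa1 among the members and in 9.57% of all windows. TATAAA matched in none of the 4 and in 12.4% of all windows. The PU.1 match of Stfa3 overlaps the shared stretch ACTCAGCATTTCC, the searched motifs overlap nowhere else in these windows, and a match is a description of letters, not a bound site.

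The copies differ in how well sequencing reads can tell them apart. The coding sequences of Stfa2 and Stfa2l1, 309 bases each, were 96.4% identical, and that of Stfa1 (291 bases) was 97.9% identical to that of Cstdc5. Stfa3 reached 81.6% at most among the members, with Stfa2l1. No stretch of the length of a read in any transcript of a member occurred unchanged in another of the 10 family genes followed here. Of the 269 such stretches of Stfa2l1, 43 came within 3 base differences of Stfa2, and of the 710 of Stfa1, 248 came within 3 differences of another family gene, with Cstdc5 the nearest. The closest stretch of Stfa3 to any other of the 10 genes still differed at 16 bases. The handling of reads that fit several genes was not given in the sources used here. The split between Stfa2 and Stfa2l1, and between Stfa1 and Cstdc5, is therefore uncertain. Stfa3 is distinct among the 10 genes, and Cstdc3 and Gm7260 were not compared.

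Values are TPM, the share of a library's transcripts corrected for gene length, as deposited, divided by a size factor per library, the median ratio of its values to the geometric mean over libraries, and are called scaled TPM. Libraries held 48064068 to 116206662 reads on genes. One ABE library, that of a female (replicate 1), stood apart, with a size factor of 0.219 against 0.610 to 1.57 in the others. The short non-coding gene Gm23935 held 83.8% of its TPM. Gm23935 was large in every library, with 40.3% to 59.8% in WT and 49.4% to 60.5% in saline libraries. In the other ABE libraries it held 54.7% to 73.2%, and TPM as deposited carry these differences. ABE replicate 1 was the lowest ABE library for Stfa2l1, Stfa1 and Stfa3, and results are given without it where it moved them. Markers of bone were present in every group. The summed level of 5 osteoblast genes had a median of 1114 scaled TPM in WT, 1107 in saline and 1080 in ABE libraries. The 4 tested osteocyte markers rose in saline against WT, where 27.7% of all genes tested rose. The summed medians of the osteocyte list were 21.5 in WT, 358 in saline and 256 in ABE libraries. Other tissues shifted with the groups as well. The summed level of 6 skeletal muscle genes had a median of 721 scaled TPM in WT, 1440 in saline and 4406 in ABE libraries. Of the 6, 5 were higher in ABE than in saline bone, against 23.2% of all genes tested. Markers of blood lineages were detected although marrow had been removed. Of 8 B cell markers 6 were lower in saline than in WT bone, as were 4 of 4 tested megakaryocyte markers, against 24.6% of all genes tested. In ABE against saline 6 of 7 tested erythroid and 4 of 4 tested megakaryocyte markers were lower, against 25.2% of all genes tested. The part of these shifts in the stefin A results was not tested.

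Among the 4 members, Stfa2l1 was the main transcript of the tibia. Per length, it made up 79.6% ± 4.55 (SD, n = 12) of the summed level of the 4 members in WT, 76.5% ± 1.97 in saline and 80.8% ± 3.47 in ABE libraries. The sum itself was 5.95 ± 2.97 scaled TPM in WT, 12.5 ± 2.55 in saline and 5.47 ± 3.03 in ABE libraries (SD, n = 12 each). Stfa1, Stfa2 and Stfa3 were near the floor of detection, with 2 to 199 reads per library, whereas Stfa2l1 had 32 to 1165. With a pseudocount of 0.5, the log2 scale used for the tests understates the changes of these 3 low genes, so a fit on the recovered reads (limma-voom) is given beside it.

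In saline-treated LMNA G/G bone each of the 4 stefin A genes was higher than in WT bone, and every saline library lay above the WT median of each gene. Stfa2l1 ranged from 2.16 to 10.5 scaled TPM in WT libraries (median 4.21) and from 6.69 to 12.9 in saline libraries (median 9.77). The groups overlapped through 2 WT libraries, both male (replicates 1 and 11, with 10.5 and 7.03), and 3 of 12 saline libraries exceeded the highest WT library. The log2 difference was 1.04 (SE 0.24, limma adjusted p = 0.00053), and 1.11 on recovered reads, a 2.16-fold higher level. In that comparison limma called 27.7% of the 15902 genes tested higher and 24.6% lower, with a median log2 difference of 0.019 over all genes, so a call alone does not set the members apart.

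Stfa1 ranged from 0.130 to 0.811 scaled TPM in WT (median 0.263) and from 0.617 to 1.21 in saline libraries (median 0.877). Its log2 difference was 0.78 (SE 0.12, limma adjusted p = 3.3e-06), or 1.57 on recovered reads (2.98-fold), and 8 of 12 saline libraries lay above every WT library. Stfa2 ranged from 0.128 to 1.05 in WT (median 0.388) and from 0.514 to 1.45 in saline libraries (median 1.04). It rose by 0.73 (SE 0.13, limma adjusted p = 2.7e-05), or 1.39 on reads, with 5 of 12 saline libraries above every WT library. Stfa3, the copy whose reads are distinct among the 10 genes compared, ranged from 0.149 to 0.874 in WT (median 0.456) and from 0.609 to 1.54 in saline libraries (median 0.961). It rose by 0.66 (SE 0.15, limma adjusted p = 0.00044), or 1.20 on reads (2.29-fold), with 7 of 12 saline libraries above every WT library. Stfa1, Stfa2 and Stfa3 exceeded the mean of 0.5 scaled TPM that the test required through their saline levels, since their WT and ABE means were below it, and they are given one by one for that reason. With no filter on low values their adjusted p were 5.7e-06, 4.8e-05 and 0.00079. The saline libraries also entered the contrast from which Stfa2l1 was chosen, and p-values rest on the spread between mice of 1 cohort.

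**Figure D1:**
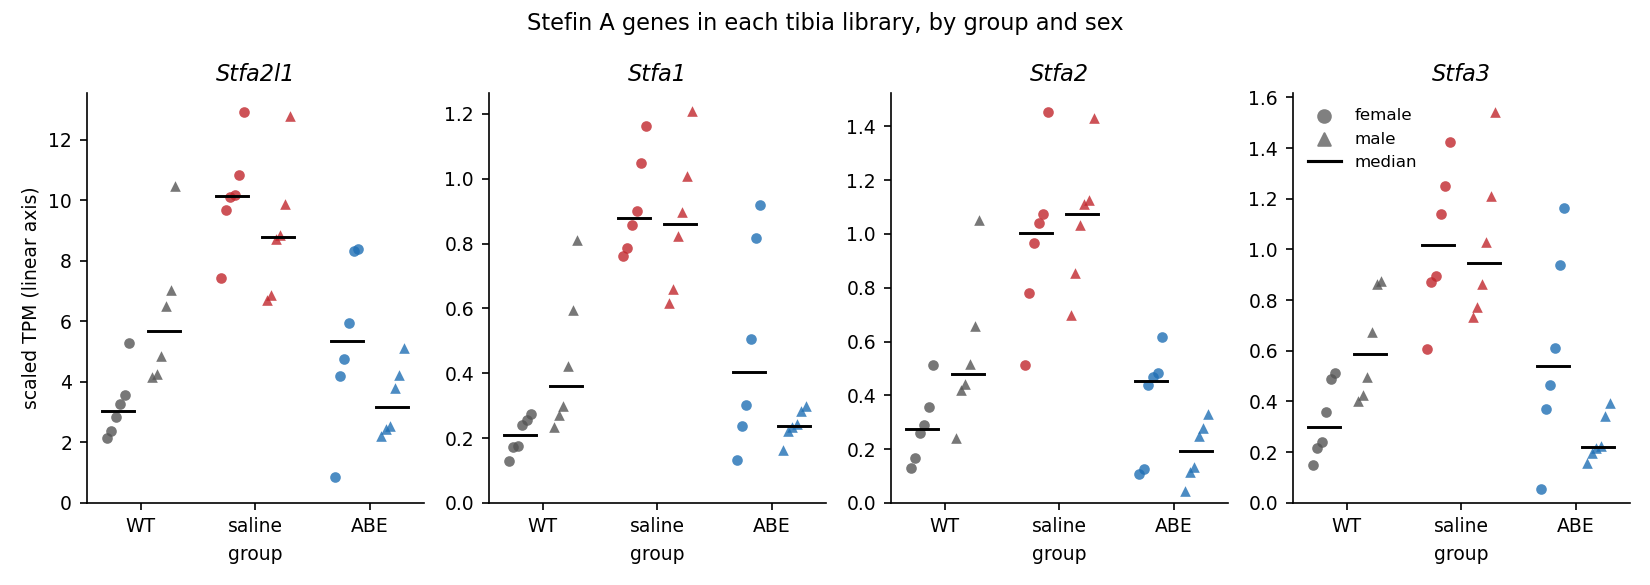
Scaled TPM (linear axes from 0) of Stfa2l1, Stfa1, Stfa2 and Stfa3 in each of the 36 tibia libraries, with circles for females, triangles for males and a black bar at the median of the 6 libraries of a sex. Saline medians lie highest for each gene, medians of WT males lie above those of WT females, and the ABE females spread more widely than the ABE males.

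Between ABE-treated and WT bone limma called no difference for Stfa2l1, nor for Stfa1, Stfa2 or Stfa3 (unadjusted p = 0.54, 0.68, 0.097 and 0.48 by limma). On recovered reads Stfa2 came nearest to a call (-0.67, limma-voom adjusted p = 0.067). Stfa2l1 ranged from 0.858 to 8.39 scaled TPM in ABE libraries, with a median of 4.19 against 4.21 in WT, and 6 of 12 ABE libraries were above the WT median. The log2 difference was -0.15 (95% interval -0.63 to 0.34, limma adjusted p = 0.60). That of Stfa1 was 0.05 (-0.20 to 0.30, adjusted p = 0.72), of Stfa2 -0.23 (-0.50 to 0.04, adjusted p = 0.13) and of Stfa3 -0.11 (-0.41 to 0.20, adjusted p = 0.54) by limma. The interval of Stfa2l1 reaches a level 0.63 lower on the log2 scale, so a p above the threshold does not show equal levels. In the same comparison 35.0% of genes were called higher and 35.2% lower. The absence of a call depended on the scaling. With TPM as deposited, whose median over all genes was shifted by -0.42, Stfa2 (-0.45, limma adjusted p = 0.0081), Stfa3 (-0.35, adjusted p = 0.036) and Stfa2l1 (-0.60, adjusted p = 0.049) were called lower in ABE than in WT bone.

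Between ABE and saline bone, the contrast that led to the choice of Stfa2l1, the values are a description. Stfa2l1 had a median of 4.19 scaled TPM in ABE and 9.77 in saline libraries, 10 of 12 ABE libraries lay below every saline library, and the log2 difference was -1.18 (SE 0.24). The 2 ABE libraries that overlapped the saline range, replicates 2 and 6, were from females and had 8.32 and 8.39 scaled TPM. They also had the highest S100a8 levels of the ABE group (731 and 455 scaled TPM) and, after replicate 1, its lowest size factors (0.690 and 0.610), and the part of these in the result was not tested. Without ABE replicate 1 the difference was -1.03. Stfa1 stood at -0.73 (SE 0.12), Stfa2 at -0.96 (SE 0.13) and Stfa3 at -0.77 (SE 0.15). On recovered reads, where low levels are not compressed, the values were -1.31 for Stfa2l1, -1.50 for Stfa1, -2.06 for Stfa2 and -1.58 for Stfa3. Stfa2 and Stfa3 each went down to 2 reads in an ABE library, with ABE medians of 20.5 and 14.5 reads. For Stfa2, 11 of 12 ABE libraries lay below every saline library. In this comparison 25.2% of genes were called lower and 23.2% higher.

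The order of the sexes was not the same in each group. In WT females Stfa2l1 had a median of 3.05 scaled TPM (2.16 to 5.29) and in WT males 5.67 (4.15 to 10.5). The references had the same order in WT, with female and male medians of 113 and 232 for S100a8 and 272 and 452 for Ngp. In saline libraries the medians were 10.1 for females and 8.77 for males, and in ABE libraries 5.34 (0.858 to 8.39) and 3.16 (2.19 to 5.12). Saline females ranged from 7.44 to 12.9. The log2 difference of saline from WT was 1.54 (limma adjusted p = 0.0062). In males it was 0.53 (adjusted p = 0.063 by limma), the only member and sex in which saline against WT was not called. Stfa2 rose in females by 0.89 (limma adjusted p = 0.0025) and in males by 0.57 (0.0065). Stfa3 rose in females by 0.88 (limma adjusted p = 0.0097) and in males by 0.44 (0.013).

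ABE against WT had opposite signs in the sexes. In males Stfa2l1 stood at -0.78 (limma adjusted p = 0.0079), Stfa2 at -0.59 (0.0041) and Stfa3 at -0.56 (0.0022), all called lower than WT. In females the same genes stood at 0.48, 0.13 and 0.34, with limma adjusted p of 0.27, 0.55 and 0.20. Stfa1 was called higher in females (0.42, limma adjusted p = 0.043) and stood at -0.31 in males (adjusted p = 0.051). The test of the difference itself, the sex by group interaction, passed for Stfa3, with a female minus male difference of 0.90 (SE 0.26, limma adjusted p = 0.048). It was 0.73 for Stfa1 (adjusted p = 0.053), 0.72 for Stfa2 (0.083) and 1.26 for Stfa2l1 (0.089) by limma, and 3.81% of all genes tested passed. The references had the same direction, with 1.06 for S100a8 and 0.81 for Ngp (limma adjusted p = 0.32 and 0.33), neither of them called. The Stfa3 call was not stable. Its limma adjusted p ranged from 0.011 to 0.10 when single libraries were left out, and was 0.071 with TPM as deposited and 0.056 and 0.054 with pseudocounts of 0.1 and 1, so each of these 3 settings ended the call. For saline against WT the female minus male difference was 1.01 for Stfa2l1 (unadjusted p = 0.026, adjusted 0.17 by limma), 0.44 for Stfa1, 0.32 for Stfa2 and 0.44 for Stfa3 (limma adjusted p = 0.22, 0.40 and 0.30), none of them called, where 1.55% of genes were. The references had the same direction here too, with 1.05 for Ngp and 0.97 for S100a8 (limma adjusted p = 0.17 and 0.31), neither of them called.

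Along the chromosome the relatives between the members ranged from no detectable reads to levels like those of Stfa1. Cstdc4 passed the filter, with means of 0.623, 0.944 and 0.463 scaled TPM in WT, saline and ABE libraries. In reads it was close to Stfa2l1, with medians of 276.5, 482 and 195 against 227.5, 591.5 and 245 in those groups. Its scaled TPM is low because its longest transcript has 1859 bases, against 419 for Stfa2l1. Cstdc4 rose in saline against WT by 0.39 (SE 0.13, limma adjusted p = 0.0097). In ABE against saline, the contrast behind the choice of Stfa2l1, which Cstdc4 tracks closely, it stood at -0.62, given without a test. Cstdc5, the near-copy of Stfa1, had medians of 0.142, 0.546 and 0.145 scaled TPM, and 10 of 12 saline libraries lay above every WT library. In the fit without a filter it rose by 0.62 (SE 0.085, limma adjusted p = 5.6e-07). Csta2, Csta3 and Cstdc6 had at most 12 reads in any library. Csta1, at one end of the cluster, had no read in the WT and ABE libraries and at most 1 read in a saline library. In scaled TPM, which is per length, the 4 Stfa genes held 85.5% ± 2.52 (SD, n = 12) of the summed level of the 10 genes in WT. They held 87.2% ± 1.61 in saline and 87.0% ± 2.77 in ABE libraries. In reads this share would differ, since Cstdc4 has a longer transcript than Stfa2l1.

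**Figure D2:**
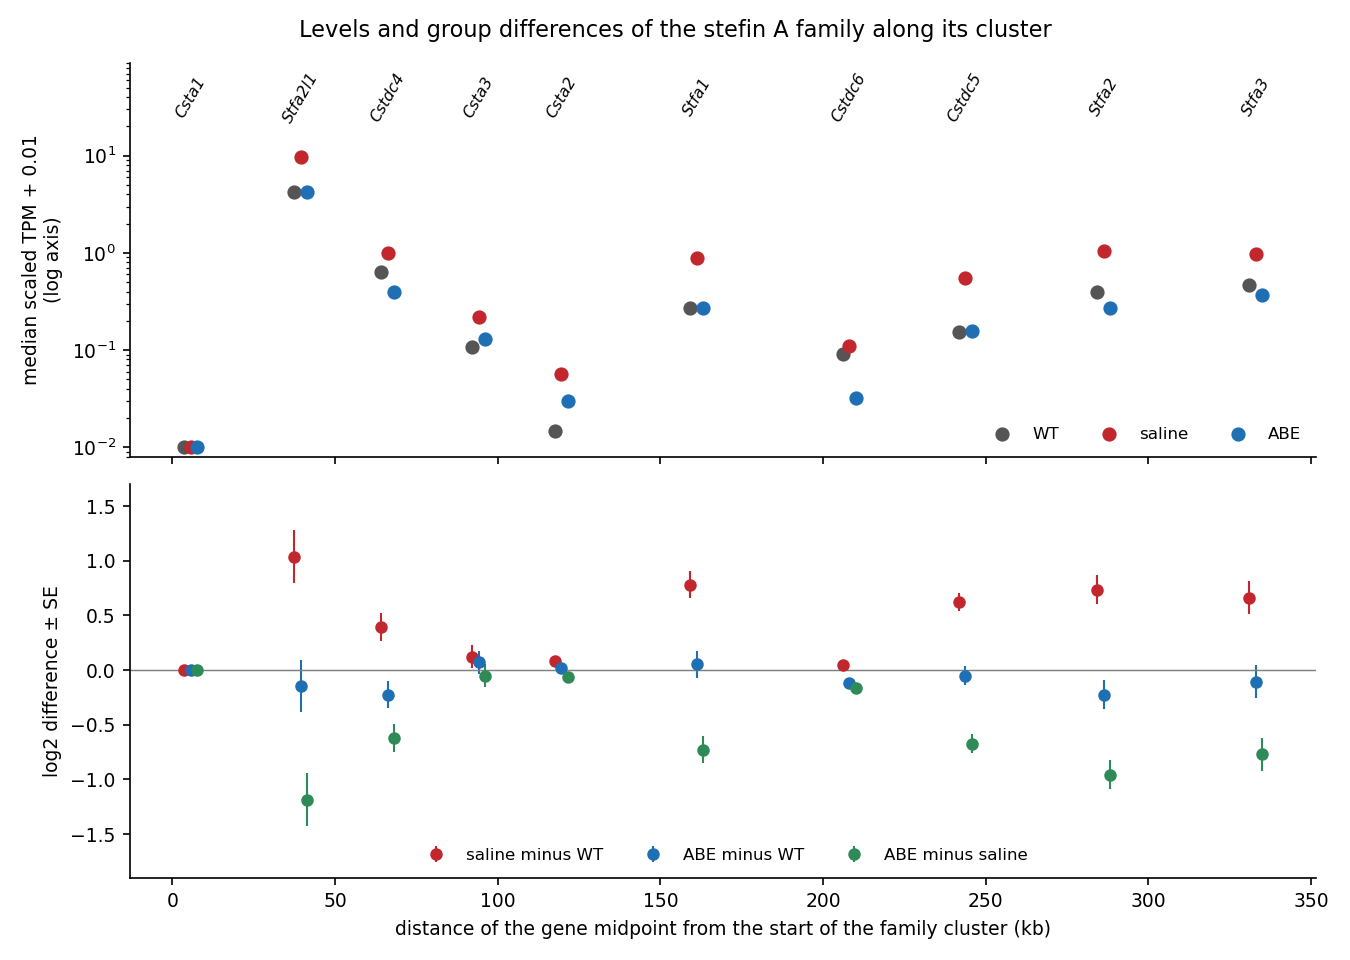
Upper axis, median scaled TPM plus 0.01 (log axis) of the 10 family genes in WT, saline and ABE libraries by the distance of the gene's midpoint from the start of the cluster in kb. Lower axis, log2 differences with their SE between the groups, from the fit without a filter on low values. Saline medians stand above WT and ABE medians at each gene but Csta1, which stays at the bottom of the axis.

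The members varied together across libraries within groups. After the mean of each group and sex was taken off, Stfa2l1 and Stfa3 correlated with r = 0.82 over the 36 libraries, Stfa1 and Stfa3 with 0.78, Stfa1 and Stfa2l1 with 0.75, and Stfa1 and Stfa2 with 0.61, the weakest pair. Stfa2l1 and Cstdc4 reached 0.90. The points share their libraries and scaling. Among 4698 genes with a mean of at least 5 scaled TPM in a group, the 6 whose pattern over the 36 libraries was most like that of Stfa2l1 were Sec61b (r = 0.87), a subunit of the protein channel of the endoplasmic reticulum, Anxa1 (0.86), annexin A1, Mob1a (0.85), a coactivator of Hippo pathway kinases, Cd53 (0.84), a tetraspanin of leukocytes, Stk17b (0.84), a serine/threonine kinase, and Tmsb4x (0.84), the actin-binding thymosin beta 4. S100a8 came 30th with r = 0.82 and Ngp 170th with 0.77.

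Within each group Stfa2l1 followed S100a8 and Ngp. Its log2 level correlated with that of S100a8 over the 12 WT libraries with Pearson's r = 0.93 (permutation p = 3e-05, adjusted over 24 relations 0.00048) and Spearman's rho = 0.93 (permutation p = 3e-05, adjusted 0.00072), and r was 0.89 without the 2 libraries farthest from the median and 0.86 with the sex means taken off. In ABE libraries r was 0.86 (permutation p = 0.00048, adjusted 0.0019) and rho 0.80 (permutation p = 0.0026, adjusted 0.0061), with r = 0.61 without the 2 farthest libraries. In saline libraries r was 0.63 (permutation p = 0.028, adjusted 0.034) and rho 0.55 (permutation p = 0.066, adjusted 0.072), and r was 0.84 without the 2 farthest. With Ngp, r was 0.89 in WT, 0.78 in saline and 0.81 in ABE libraries (permutation p = 0.00022, 0.0022 and 0.0024, adjusted 0.0013, 0.0053 and 0.0053), and rho was 0.91, 0.73 and 0.72 (permutation p = 0.0001, 0.0097 and 0.011, adjusted 0.0012, 0.018 and 0.018). Without the 2 farthest libraries these r were 0.89, 0.74 and 0.42, so that in ABE libraries the relation to Ngp rested largely on those 2. Stfa2 was the member that did not follow the references among saline libraries, with r = -0.14 for S100a8 (permutation p = 0.67, adjusted 0.70) and -0.07 for Ngp (permutation p = 0.83, adjusted 0.83), and rho = -0.15 and -0.12 (permutation p = 0.63 and 0.72, adjusted 0.66 and 0.72), whereas in WT libraries its r was 0.81 and 0.77 (permutation p = 0.0009 and 0.0032, adjusted 0.0031 and 0.0054) and its rho 0.78 and 0.80 (permutation p = 0.0047 and 0.0028, adjusted 0.0094 and 0.0061). Without the 2 farthest libraries the r of Stfa2 with S100a8 was 0.41 in saline and 0.63 in WT libraries.

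**Figure D3:**
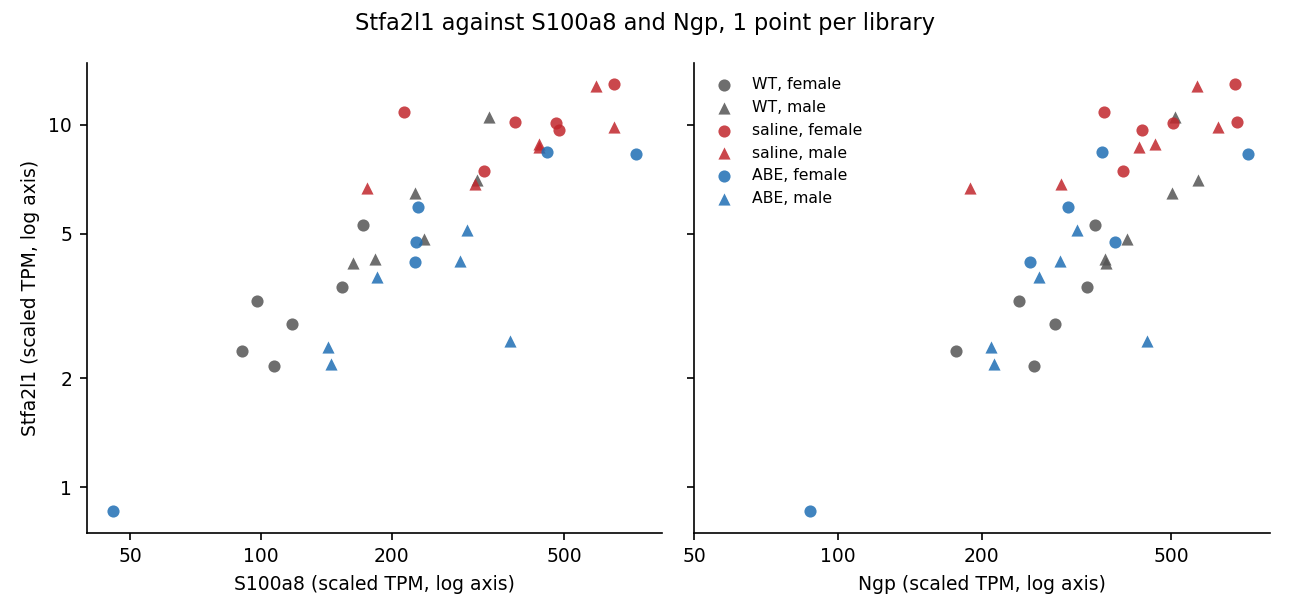
Stfa2l1 against S100a8 and against Ngp in scaled TPM (log axes), 1 point for each of the 36 libraries, coloured by group, with circles for females and triangles for males. Stfa2l1 climbs with both references, ABE replicate 1 lies alone at the lower left, and at a given Ngp level most saline points lie above the WT points.

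Set against a reference in the same library, the members gave a different order of groups for each reference. S100a8 itself was higher in saline than in WT bone by 1.25 (SE 0.30, limma adjusted p = 0.00096), and Ngp differed by 0.36 (SE 0.24, adjusted p = 0.21 by limma). The log2 ratio of Stfa2l1 to Ngp was 0.68 higher in saline than in WT libraries (SE 0.13, permutation p = 5e-05, adjusted over 16 tests 0.0008), above the WT median in 12 of 12 libraries. Within the sexes it was 0.66 higher in females and 0.70 higher in males (unadjusted exact permutation p = 0.0087 in each, where 6 against 6 can reach 0.0022). Adjusted over the 16 tests, the exact permutation p in females was 0.069, past the threshold for a call. The ratio of Stfa2l1 to S100a8 differed by -0.21 (SE 0.15, permutation p = 0.18, adjusted 0.23), but with quantile-normalized values by -0.48 (permutation, adjusted p = 0.014). In ABE against WT libraries the ratio to S100a8 differed by -0.60 (SE 0.16, permutation p = 0.00034, adjusted 0.0027; with TPM as deposited -0.47, adjusted p = 0.083), with 1 of 12 ABE libraries above the WT median, and the ratio to Ngp differed by 0.11 (SE 0.16, permutation p = 0.49, adjusted 0.52). Between ABE and saline libraries the ratio of Stfa2l1 differed by -0.39 for S100a8 and -0.56 for Ngp. For Stfa1, Stfa2 and Stfa3 the ratios depended on the pseudocount, which is as large as their levels. With 0.5 the ratio to Ngp in saline against WT differed by 0.42, 0.37 and 0.30 (permutation, adjusted p = 0.042, 0.12 and 0.086), so only that of Stfa1 was called. With 0.1 the differences were 0.96, 0.82 and 0.68 (permutation, adjusted p = 0.00032, 0.0028 and 0.00056), and with 1 they were 0.16, 0.14 and 0.10 (adjusted p = 0.46, 0.55 and 0.57 by permutation). The pseudocount decided these calls. The ratio to S100a8 in saline against WT differed with 0.5 by -0.47, -0.51 and -0.58 (permutation, adjusted p = 0.042, 0.073 and 0.019), and with 0.1 by 0.08, -0.06 and -0.21 (adjusted p = 0.73, 0.85 and 0.35 by permutation), so that Stfa1 turned sign and the calls of Stfa1 and Stfa3 were lost.

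In bulk bone, fewer cells of a type and less RNA per cell cannot be told apart, so neutrophil genes are given beside the members. The summed level of 14 neutrophil markers had a median of 1586 scaled TPM in WT (801 to 2606), 2668 in saline (1068 to 3835) and 1663 in ABE libraries (367 to 4103). In saline against WT 3 of the 14 rose and 0 fell, where 27.7% of all genes tested rose, with a median log2 difference of 0.36 against 0.019 over all genes. Of 18 genes of tertiary granules and mature neutrophils 8 rose and 0 fell, among them S100a9, the partner of S100a8, by 0.93 (limma adjusted p = 0.0061), while Retnlg, a resistin-like protein, stood at 0.62 (adjusted p = 0.060 by limma). Of 10 secondary granule genes 3 rose, and Ngp, Camp, the cathelicidin precursor, and Ltf, lactoferrin, were not among them. Of 7 primary granule genes tested, among them Elane, Mpo and Prtn3, 0 rose and 0 fell. In ABE against WT 5 of the 18 mature genes were called lower and 1 higher, 5 of the 10 secondary granule genes lower and 6 of the 7 primary granule genes lower, where 35.2% of all genes tested were lower. In ABE against saline 15, 9 and 7 of these genes were called lower and 0 higher, where 25.2% of all genes tested were lower, and nothing is read from this count, since that contrast led to the choice of Stfa2l1.

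With the mean log2 level of the 14 neutrophil markers as a covariate, the saline against WT differences were smaller and still called. They were 0.71 for Stfa2l1 (SE 0.14, limma adjusted p = 7.6e-05), 0.63 for Stfa1, 0.62 for Stfa2 and 0.47 for Stfa3 (adjusted p = 2.9e-07, 4.4e-05 and 0.00016 by limma). ABE against WT stood at 0.08 for Stfa2l1 and ABE against saline at -0.63 (SE 0.15), against -1.18 without the covariate. The covariate removes also what the members and neutrophil genes share for other reasons. It is a mean of markers that moved unequally in saline against WT, such as S100a8 at 1.25 and Ltf at -0.03. A call beside this mean is thus not a rise beyond that of each neutrophil gene. Of 8 monocyte and macrophage markers 1 was higher and 2 were lower in saline against WT, where 27.7% and 24.6% of all genes tested were. In ABE against saline 7 were lower and 0 higher (median log2 difference -0.49), where 25.2% of all genes tested were lower. The 2 lower in saline against WT, F13a1 and Ccr2, stood at -0.46 and -0.36 there (limma adjusted p = 0.0059 and 0.027). The 1 marker higher in saline against WT, Cd68, a lysosomal protein of macrophages, stood at 0.93 there and at -0.73 in ABE against saline. The directions of Cd68 are the same as those of the stefin A genes, and Cd68, F13a1 and Ccr2 were singled out after their values were seen. Keratinocyte markers were close to 0, with 0 of 8 past the filter and a summed level of 0.294 to 1.05 scaled TPM over all libraries, and none was at 0 in every library. What other cell types contributed was not tested.

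**Figure D4:**
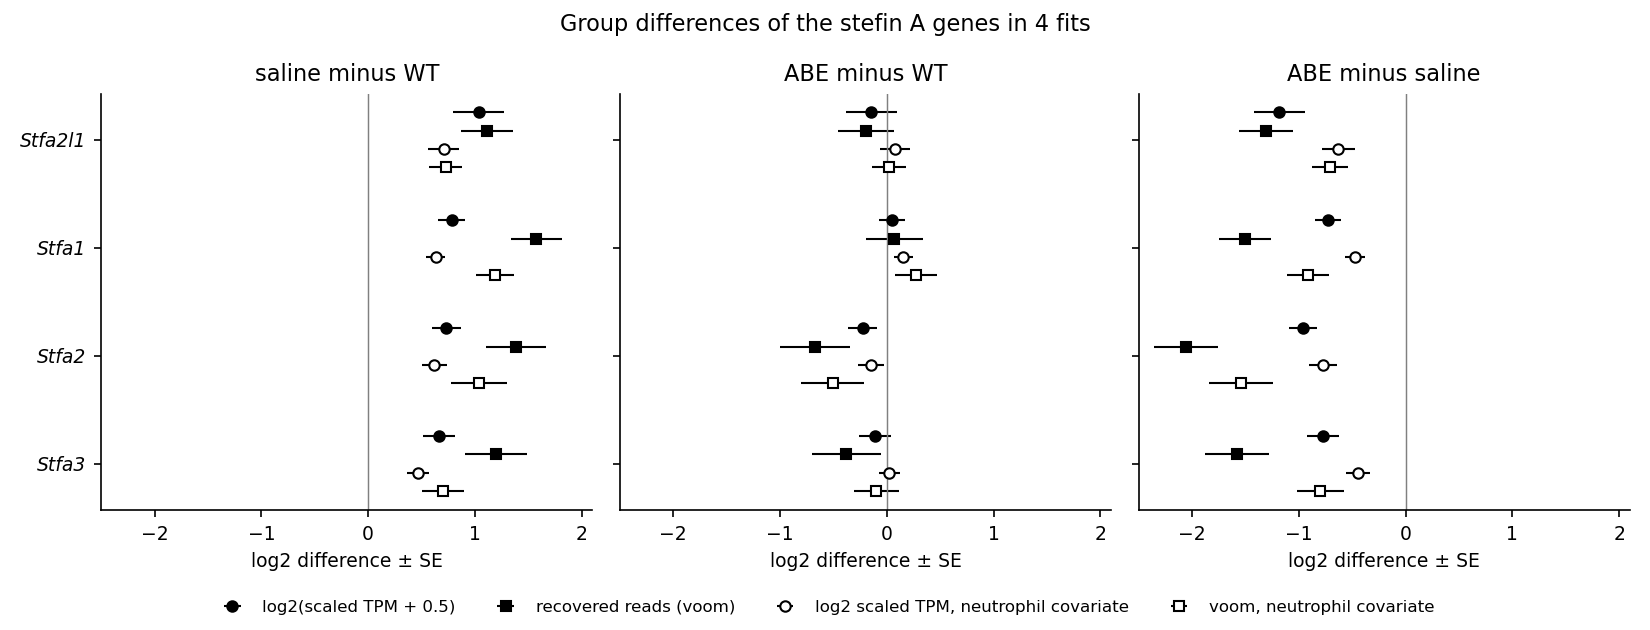
Log2 differences with their SE for Stfa2l1, Stfa1, Stfa2 and Stfa3 in saline minus WT, ABE minus WT and ABE minus saline, from log2(scaled TPM + 0.5) and from recovered reads (voom), each without (filled) and with (open) the neutrophil marker covariate. In saline minus WT all points lie above 0, and in ABE minus saline all lie below 0 and nearer to 0 with the covariate.

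Other inhibitors and the proteases that stefins bind were read from lists. Stefin B (Cstb), the single-copy relative found in most cells, rose in saline against WT by 1.12 (SE 0.14, limma adjusted p = 6.9e-08), and unlike the members it was also called higher in ABE against WT, by 0.44. Cystatin C (Cst3), a secreted inhibitor, rose by 0.84 in saline and by 0.89 in ABE against WT. Cst7, cystatin F of leukocyte lysosomes, stood at 0.21 in saline against WT (limma adjusted p = 0.38). Of 10 cysteine cathepsins 6 rose and 0 fell in saline against WT, where 27.7% of all genes tested rose and 24.6% fell, with a median log2 difference of 0.29. Ctsk, the osteoclast collagenase, rose most, by 1.64 (SE 0.23), from a mean of 55.3 to 181 scaled TPM. Ctsb, Ctsl, Ctsz, Ctsf and Ctsw rose by 0.28 to 0.54, whereas Ctss and Ctsh, targets of stefins in leukocytes, stood at -0.07 and -0.19 and were not called. In ABE against WT 3 cathepsins were higher, Ctsk, Ctsl and Ctsf, and 3 were lower, Ctss, Ctsh and Ctso, close to the 35.0% and 35.2% of all genes tested. In ABE against saline 7 of the 10 were called lower and 0 higher, where 25.2% of all genes tested were lower. Osteoclast markers, which include Ctsk, moved with them, with 5 of 5 tested higher in saline and in ABE against WT, where 27.7% and 35.0% of all genes tested were higher.

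**Figure D5:**
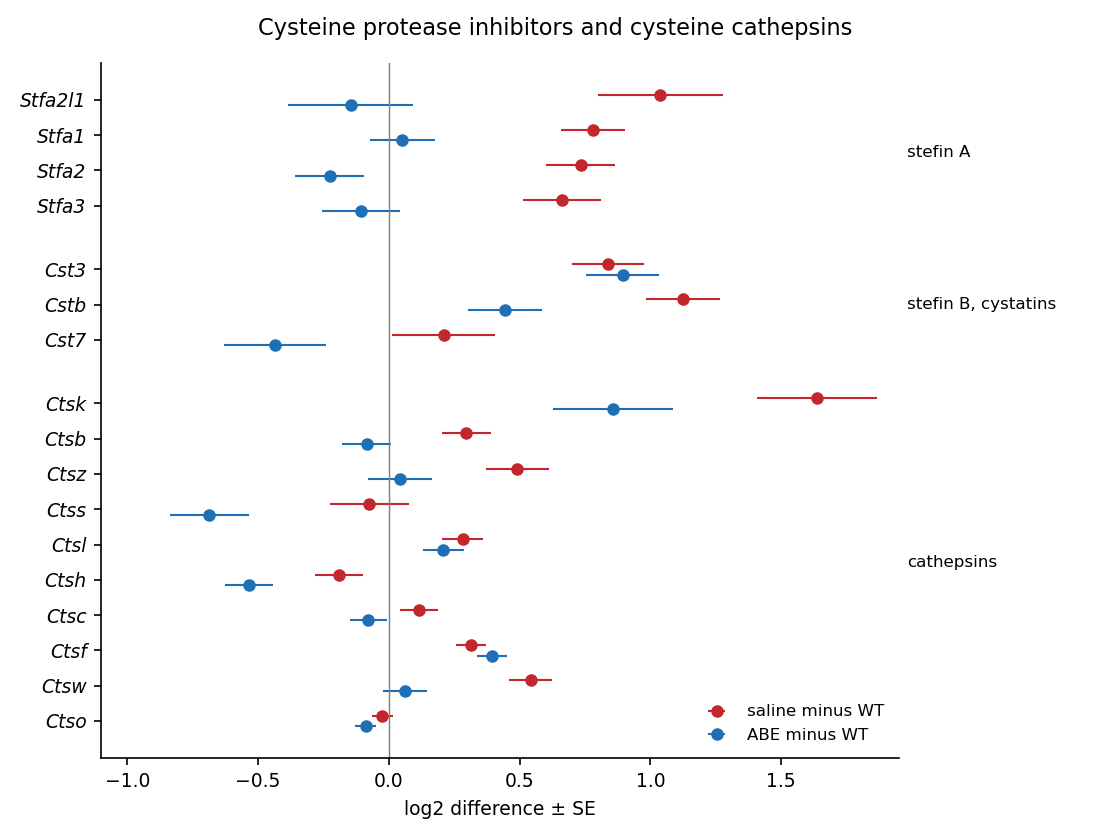
Log2 differences with their SE in saline minus WT and ABE minus WT for the 4 stefin A genes, stefin B and the cystatins that passed the filter, and 10 cysteine cathepsins. The stefin A genes stand above 0 in saline and near 0 in ABE bone, Cst3 stands alike in both, and Ctsk has the largest difference.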

How the data were processed

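RNA of 36 tibiae, 12 per group, was sequenced as strand-specific poly(A) libraries. The authors aligned reads with STAR (2.73a per the labels) to GRCm38 and deposited TPM (transcripts scaled to a fixed total per library) for each gene of 1 series table of 56246 genes. The values are whole reads over gene length less 218 bp in 100% of the low values (tolerance 0.05), and reads were recovered from them; how reads that fit several genes were counted is not given in the sources used here. Each library was divided by a median ratio size factor over the 23632 genes above 0 in every library. Genes averaging 0.5 scaled TPM or more (15902) were fitted on log2(scaled TPM + 0.5) with limma 3.58.1 (R 4.3.3), trend, groups and sex as terms, and Benjamini-Hochberg adjustment at 0.05. The study ran a count model, whereas TPM needs a log-scale test, so voom on recovered reads served as an alternative. Fold changes are on the log2(scaled TPM + 0.5) scale, which understates the change of low genes. The script was tested on simulated data.

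Ratios and correlations were tested by 2-sided permutation of 100000 resamples (smallest p 1e-05), and sexes by the exact permutation test. Members, lists and tests were chosen with earlier results of these data known. Described were every member, S100a8 and Ngp, the family genes of the cluster, tested cystatins and cathepsins, up to 3 genes of highest level in each other list, and the 6 genes most like Stfa2l1. Outside this rule, F13a1 and Ccr2 were named for their calls after their values were seen. Per library 48064068 to 116206662 reads lay on genes, 2 to 1165 of them on a member, which limits the precision of the 3 low members. Replicate numbers were given in accession order. The alternatives were TPM as deposited, quantile normalization, pseudocounts of 0.1 and 1, no filter or one at 5, no sex covariate, 1 sex, the compared groups alone, array weights, voom, a neutrophil covariate and leaving out each library. Promoter windows came from RefSeq.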

Additional observations from a re-analysis of the deposited data

Results flagged for a closer look

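The change from WT to ABE bone differed between the sexes for 2 genes of the cluster by a test of the difference itself, which 3.81% of all genes tested passed. The direction is not particular to the cluster. The female minus male log2 difference was 1.06 for S100a8 and 0.81 for Ngp (limma adjusted p = 0.32 and 0.33), neither of them called. For Stfa3 the female minus male log2 difference was 0.90 (SE 0.26, limma adjusted p = 0.048), with female medians of 0.300 scaled TPM in WT and 0.538 in ABE libraries and male medians of 0.587 and 0.221. For Cstdc4, its relative beside Stfa2l1, the difference was 0.77 (SE 0.22, limma adjusted p = 0.043), with female medians of 0.432 and 0.585 and male medians of 0.754 and 0.357. Both calls sit near the threshold. Of the 36 libraries left out in turn, 29 ended the Stfa3 call and 15 the Cstdc4 call. TPM as deposited and a pseudocount of 0.1 ended the Cstdc4 call too (limma adjusted p = 0.083 and 0.062), and with a pseudocount of 1 it held (0.040), while these 3 settings each ended that of Stfa3. ABE replicate 1, which stood apart, is 1 of the 6 ABE females, and without it the Stfa3 difference was 1.08. Its part in the result was not tested further. Of 36 groups of 6 libraries examined for a library far from the others, 0 had one, where chance gives about 5%.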

How the results depend on the processing

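Saline against WT kept its direction for each member under every setting run and was called under each, except for Stfa2l1 in males alone (0.53). ABE against WT depended most on the setting. With TPM as deposited the log2 differences were -0.16 for Stfa1, -0.45 for Stfa2, -0.60 for Stfa2l1 and -0.35 for Stfa3; in females 0.42, 0.13, 0.48 and 0.34; in males -0.31, -0.59, -0.78 and -0.56. With the neutrophil covariate Stfa2l1 stood at 0.079 and Stfa3 at 0.025, and with the covariate on reads Stfa2l1 stood at 0.021. Leaving out single libraries gave -0.0195 (without ABE replicate 2) to 0.12 for Stfa1 and -0.25 to 0.0076 (without ABE replicate 1) for Stfa2l1. ABE against saline moved to -1.24, -1.66 and -1.29 for Stfa1, Stfa2 and Stfa3 with a pseudocount of 0.1, to -1.50, -2.06 and -1.58 on reads, and to -1.54 for Stfa2 on reads with the covariate (an alternative chosen after seeing the data).

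The genes called in saline against WT were 8326, against 4761 with TPM as deposited, 13260 with no filter, 2043 with a filter at 5 scaled TPM and 3319 in females. In ABE against WT they were 11169, against 19277 with no filter and 2606 with the filter at 5. In ABE against saline they were 7693, against 1775 with the filter at 5, 4830 in females, 3267 in males, 1626 with the covariate and 1640 with it on reads. Fewer or more genes were tested under the filters and fewer libraries within a sex; other causes were not tested.

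The sex difference of Stfa3 in ABE against WT was 0.85 with TPM as deposited and 1.53 and 0.60 with pseudocounts of 0.1 and 1, each no longer called (limma adjusted p = 0.071, 0.056 and 0.054), and 0.77 to 1.08 with single libraries left out (all chosen after seeing the data). The Stfa2l1 to S100a8 ratio in ABE against WT was -0.47 with TPM as deposited and -0.50 in females, each no longer called (permutation, adjusted p up to 0.09). In saline against WT it was -0.48 with quantile normalization and -0.31 to -0.15 with single libraries left out. The Stfa2l1 to Ngp ratio in saline against WT was 0.66 in females, no longer called (exact permutation, adjusted p = 0.069). In ABE against WT it was -0.21 with quantile normalization and -0.11 in males. Ratios of low members turned sign: Stfa1 to S100a8 in saline against WT (0.076 with a pseudocount of 0.1), Stfa2 to Ngp in ABE against WT (-0.21 with 0.1, -0.26 with quantile normalization, -0.013 in females, -0.092 to 0.12 with single libraries left out), and Stfa3 to Ngp (-0.13 in ABE against WT with quantile normalization, -0.0040 in saline against WT in females). No paired analysis was possible because replicate numbers are in accession order and pair no mice. Reads limit Stfa1, Stfa2 and Stfa3, down to 2 in a library.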
